A study of Mus musculus with 12 samples.

Results

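The transcriptome of C8-D1A cells kept for 24 h in medium with 20 mM lactic acid was compared with that of untreated cells. C8-D1A is an established mouse line sold as astrocytes, the glial cells that make lactate and buffer the fluid around neurons. The comparison used 6 of the 12 libraries of the study, which were those labelled control (24 h at 37 °C with 5% CO2) and lactic acid, 3 in each group. The remaining libraries were 3 of cells kept at 15% CO2 and 3 of cells in medium with 0.2 g/L NaHCO3 (low-NaHCO3 medium), also for 24 h, and these served to show where the lactic acid group differed. All cells were of this single line and no group carried a genetic change. The pH reached in each medium is not given in the labels, so treatments cannot be matched by acidity. Separate cultures are not stated for the replicates, so p-values measure the spread between these libraries, which may be technical.

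Lactic acid gives up its proton at the pH of culture medium, and lactate and protons enter cells together through monocarboxylate transporters. Inside the cell lactate dehydrogenase converts lactate to pyruvate, while bicarbonate transporters, proton exchangers and carbonic anhydrases restore the pH. Sterol synthesis, folding of secreted proteins in the endoplasmic reticulum (ER) and iron uptake are each set by a sensing system that adjusts mRNA levels, and early growth-response genes follow signalling by kinases. The gene groups below follow these systems.

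Levels are TPM, each gene's share of the transcripts of its library scaled to the same total. Of 21959 genes in the table, 12326 reached 1 TPM in at least 3 libraries and were tested on the scale log2(TPM + 1), which understates the change of genes at low levels. Changes are log2 differences ± their standard error, and a gene is said to have risen or fallen where limma's adjusted p was under 0.05. Values of the 3 libraries of a group are listed in the order of replicates 1, 2 and 3. Control 1 had high levels of brain cell markers, so calls were counted for all 12 libraries and again with control 1 left out (11 libraries, 12226 genes). A change against control is that of all 12 libraries, unless it is said to leave out control 1 or follows levels of controls 2 and 3 alone. In RNA of bulk cells, fewer cells with a transcript and less transcript per cell cannot be told apart.

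Markers of astrocytes were divided. Of 20 listed, 7 stayed under 1 TPM in controls 2 and 3 and the lactic acid libraries, and 7 stood at 30 TPM or more in all 5. The first set held genes of mature astrocytes. Outside control 1, Aqp4, the water channel of astrocyte endfeet, stood at no more than 0.356 TPM and the glutamate transporter gene Slc1a2 at no more than 0.416 TPM. The glutamate transporter gene Slc1a3 was listed at 0 in controls 2 and 3 and in 2 of 3 lactic acid libraries, and the connexin gene Gjb6 at 0 in all 5. Gfap, the astrocyte filament gene, stood at 0.518 and 0.701 TPM in controls 2 and 3 and at 1.12, 0.711 and 1.19 TPM with lactic acid. The second set held Vim, Nes, Cd44, Glul, S100b, Nfib and Sox9. Vim and Nes are filament genes that immature and mesenchymal cells also express, with Vim at 1902 and 1864 TPM in those controls and 1774, 1694 and 1389 TPM with lactic acid. Genes of the skeletal muscle lineage were present in every library. The regulator Myf5 stood at 126 and 130.1 TPM in controls 2 and 3 and at 119, 119.9 and 118 TPM with lactic acid. Cdh15, a cadherin of muscle precursors, stood at 173 and 179.6 and 116, 120.2 and 117 TPM. The cells are called C8-D1A here, without a cell type.

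The libraries held 14531 to 17319 genes above 0 TPM, and the depth behind the values is unknown. Control 1 correlated with the others across genes at 0.817 to 0.881 (Spearman), against 0.929 to 0.998 among the other 11. Its summed neuron marker TPM was 3369 against 438 to 660.1 elsewhere, with 12 of 13 markers higher than in any other library. The corresponding sums were 1161 against 114 to 223 for oligodendrocyte markers, 204 against 3.88 to 11.1 for microglia markers, 153 against 27.0 to 47.3 for endothelial and mural markers, and 355 against 0.594 to 4.01 for erythrocyte markers. Transcripts of the line were low there, with Vim at 1000.4 TPM. Lactic acid 3 stood apart in another way: mitochondrially encoded genes took 27.8% of its TPM against 15.9% and 16.4% in lactic acid 1 and 2, and its summed ribosomal protein TPM was 54807 against 91754 and 89162.

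Lactic acid changed the levels of 492 genes, of which 305 rose (2.47% of genes tested) and 187 fell (1.52%). The rise was at least 1 on the log2 scale for 38 genes and the fall for 15. With control 1 left out 1972 genes were called, 1106 higher (9.05%) and 866 lower (7.08%), and all 492 genes of the larger fit were among them in the same direction. Counts over gene lists are to be read against these shares. No gene passed when the 6 libraries of control and lactic acid were fitted alone (1672 had an unadjusted p under 0.05), so no list held a call there. The count of 1972 rested on 2 controls. It was lower when either was left out, where the single control left was assumed to have the spread of the other groups. The count of 492, in the fit with control 1, was 110 without lactic acid 3, 106 without lactic acid 2, 101 without lactic acid 1 and 220 without control 2. Read without any test, all 3 lactic acid libraries lay above the highest of the 3 controls for 1848 genes (15.0%) and below the lowest for 1657 (13.4%).

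The highest rises were those of Sh2d6, Odf3l1, Cd68 and P2rx3. Sh2d6, which encodes a protein with an SH2 domain, stood at 4.54, 2.72 and 3.50 TPM in controls 1, 2 and 3 and at 17.4, 16.7 and 16.2 TPM with lactic acid. Its change was 1.97 ± 0.19 (adjusted p = 0.00182) with 12 libraries and 2.12 ± 0.18 (adjusted p = 0.000199) without control 1. Cd68, which encodes a membrane glycoprotein of lysosomes and endosomes, stood at 39.6, 61.9 and 65.7 TPM in controls 1, 2 and 3 and at 201, 194 and 251 TPM with lactic acid. For Cd68 the change was 1.95 ± 0.18 (adjusted p = 0.00182). The lowest treated library was above the highest control for both genes. Cd68 is also a macrophage and microglia gene. The summed TPM of 12 microglia markers was 10.1, 11.1 and 6.50 with lactic acid and 9.43 and 8.95 in controls 2 and 3. The microglia genes C1qa, C1qb, C1qc and P2ry12 were each listed at 0 in all 5. P2rx3, which encodes an ATP-gated cation channel, stood at 3.11, 4.70 and 5.30 TPM in controls 1, 2 and 3 and at 19.5, 16.7 and 18.1 TPM with lactic acid. For P2rx3 the change was 1.85 ± 0.22 (adjusted p = 0.00434).

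Further genes at the top encode muscle, adhesion, matrix and metabolic proteins. Hspb7, a small heat shock protein of heart and skeletal muscle, stood at 9.47, 17.4 and 17.00 TPM in controls 1, 2 and 3 and at 40.4, 41.3 and 44.3 TPM with lactic acid. Ccn1, a secreted matrix protein induced by the coactivator YAP and by serum response factor, stood at 131, 219.5 and 239 TPM in controls 1, 2 and 3 and at 498, 511 and 501 TPM with lactic acid. For Ccn1 the change was 1.40 ± 0.18 (adjusted p = 0.00658). The 3 treated libraries of Ccn1 lay close together, while control 1 was lower than controls 2 and 3. Pycr1, the last enzyme of proline synthesis, stood at 6.67, 11.9 and 13.9 TPM in controls 1, 2 and 3 and at 30.6, 28.5 and 27.3 TPM with lactic acid. Selp, the adhesion receptor P-selectin, had 2.33, 3.42 and 4.52 TPM in controls and 9.34, 10.2 and 9.99 TPM with lactic acid, and Pkp1, a desmosomal plaque protein, 4.86, 8.31 and 9.57 and 19.9, 18.4 and 16.8 TPM. Also at the top were Odf3l1, named for a sperm tail protein, Mogat2, a monoacylglycerol acyltransferase, Zc3h6, a zinc finger gene, and Cox6a2, the muscle form of a cytochrome c oxidase subunit. They rose by 1.97, 1.42, 1.20 and 1.20 (adjusted p of 0.00495, 0.0304, 0.0132 and 0.0109). Each of these genes also passed the test without control 1.

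**Figure D1:**
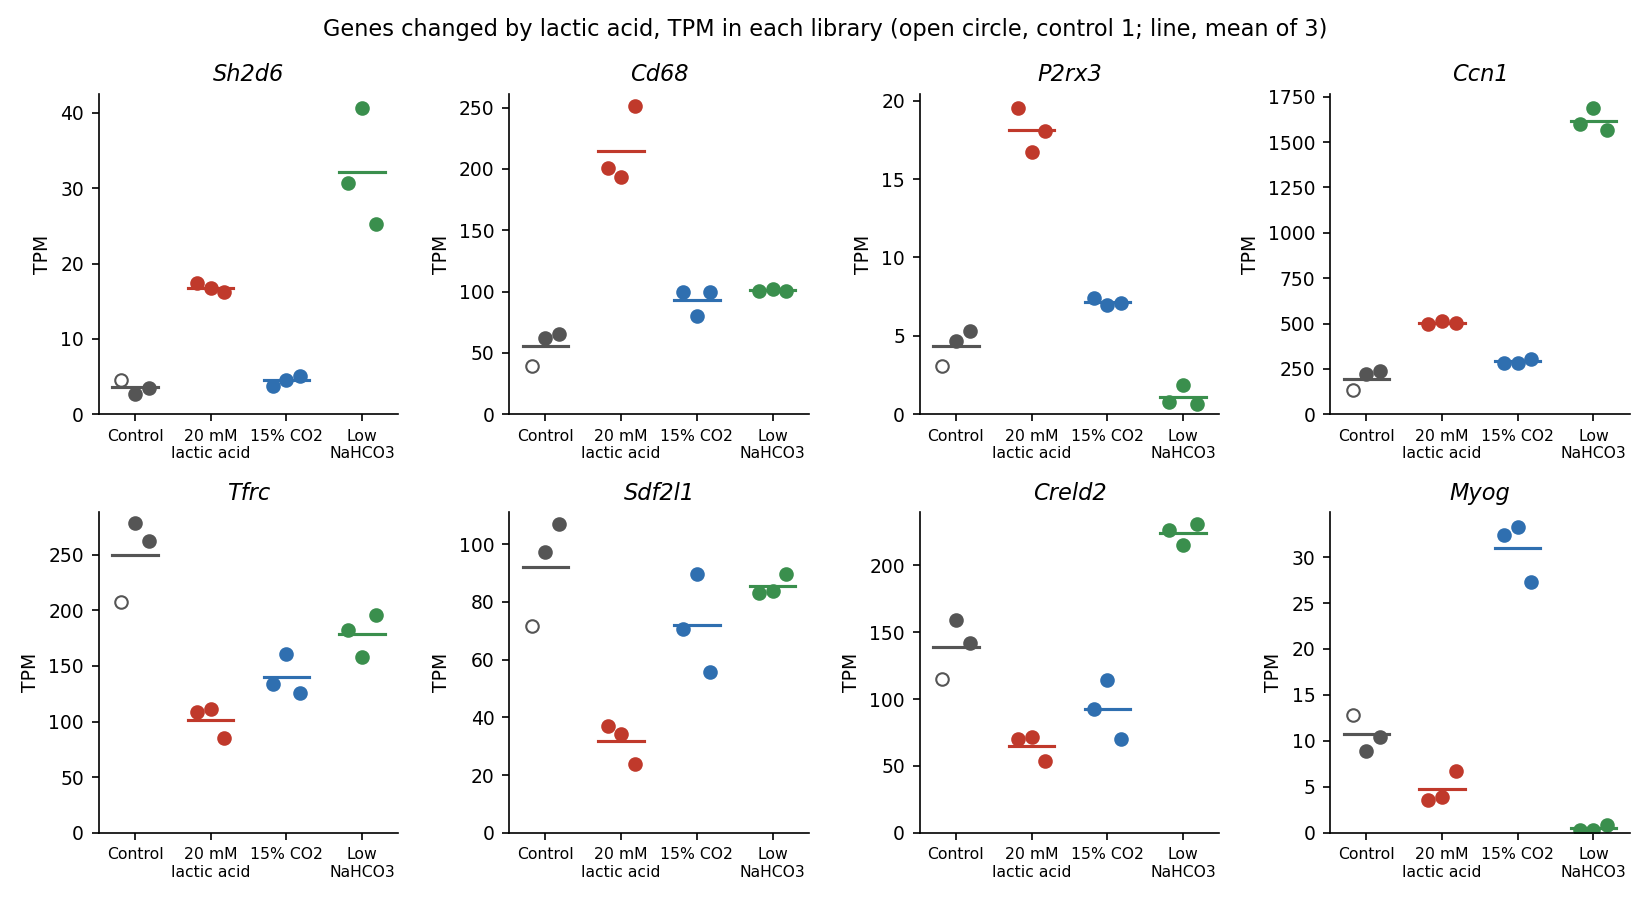
TPM of 8 genes (vertical axes, linear, from 0) in the control, lactic acid, 15% CO2 and low-NaHCO3 libraries; points are single libraries, the open circle is control 1 and lines are means of 3. For Sh2d6, Cd68, P2rx3 and Ccn1 the 3 lactic acid libraries lie above all controls, and for Tfrc, Sdf2l1, Creld2 and Myog below them, while the 15% CO2 and low-NaHCO3 groups take other orders from gene to gene.

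The deepest falls included genes of ER folding, iron uptake and oxidative metabolism. Sdf2l1, part of an ER chaperone complex, stood at 71.6, 97.2 and 107 TPM in controls 1, 2 and 3 and at 36.8, 34.2 and 23.9 TPM with lactic acid. For Sdf2l1 the change was -1.51 ± 0.20 (adjusted p = 0.00747). Tfrc, the transferrin receptor that brings iron into cells, stood at 207, 279 and 262 TPM in controls 1, 2 and 3 and at 108, 111 and 85.2 TPM with lactic acid. For Tfrc the change was -1.29 ± 0.15 (adjusted p = 0.00434). The groups did not overlap for either gene, and lactic acid 3 had the lowest level of both. Creld2, an ER protein of the folding stress response, stood at 115, 159 and 142 TPM in controls 1, 2 and 3 and at 70.5, 71.3 and 53.4 TPM with lactic acid. Cox8b, the muscle form of a cytochrome c oxidase subunit, had 6.73, 5.46 and 3.42 TPM in controls and 1.64, 0.595 and 0.498 TPM with lactic acid. For Cox8b the change was -1.71 ± 0.34 (adjusted p = 0.0264). Myog, the muscle regulator myogenin, had 12.8, 8.92 and 10.4 and 3.56, 3.87 and 6.71 TPM. For Myog the change was -1.06 ± 0.22 (adjusted p = 0.029). Apln, the secreted peptide apelin, fell by 1.08 on the log2 scale, from 18.9, 17.1 and 12.9 TPM to 6.76, 7.14 and 7.34 TPM. Acyp2, an acylphosphatase, stood at 35.8, 11.9 and 16.00 TPM in controls 1, 2 and 3 and at 7.54, 6.70 and 3.53 TPM with lactic acid. For Acyp2 the change was -1.59 ± 0.36 (adjusted p = 0.0377) with and -1.15 ± 0.27 (adjusted p = 0.0177) without control 1. Iqsec3, an exchange factor of inhibitory synapses, and Wdr6 were higher in control 1 (57.5 and 75.4 TPM) than in controls 2 and 3 (21.7 and 21.1 TPM and 36.7 and 41.98 TPM). Both fell against controls 2 and 3 as well, to 11.2, 11.6 and 14.1 TPM and 24.2, 22.5 and 16.1 TPM. Commd9, a gene of endosomal sorting, stood at 37.03, 29.5 and 27.1 TPM in controls 1, 2 and 3 and at 16.5, 19.1 and 10.7 TPM with lactic acid. Hist1h4i, a histone H4 gene whose sequence is nearly shared by other H4 genes so that its reads are uncertain, went from 30.8, 52.9 and 59.3 TPM to 18.2, 20.9 and 9.62 TPM.

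Genes of cholesterol synthesis and uptake were called lower and never higher. Of 25 genes of the pathway and its control, 10 fell and none rose with 12 libraries, against 1.52% of all genes, and 18 fell and none rose without control 1, against 7.08%. The median change of the 25 was -0.50 in the first fit and -0.57 in the second, beside -0.04 over all genes tested in the first. For 19 of the 25 the 3 lactic acid libraries lay below all 3 controls, against 13.4% of all genes. The summed TPM of the list was 1084, 1211 and 1206 in controls and 848, 824 and 731 with lactic acid (exact two-sided permutation p = 0.1, the smallest that 3 against 3 can give). The steps ran from Acat2, which makes the first intermediate, through Hmgcs1, which makes the next, to Idi1, Sqle, Lss, Cyp51 and Sc5d. Hmgcs1 had 109, 65.6 and 70.7 TPM in controls and 44.3, 42.2 and 34.9 TPM with lactic acid. For Hmgcs1 the change was -0.97 ± 0.20 (adjusted p = 0.0283). Control 1 was the highest control of Hmgcs1, and the lactic acid libraries lay below every control.

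Cyp51, which removes a methyl group from lanosterol, went from 48.9, 52.5 and 44.9 to 25.8, 26.2 and 26.4 TPM (-0.87 ± 0.11, adjusted p = 0.00573). Acat2 went from 54.1, 68.6 and 67.8 to 37.1, 39.5 and 27.7 TPM (-0.86 ± 0.15, adjusted p = 0.0149). Idi1, Sqle, Lss, Sc5d and Insig1, the last a brake on sterol synthesis, had changes of -0.78, -0.56, -0.50, -0.51 and -0.56 (adjusted p = 0.0216, 0.0196, 0.0152, 0.00685 and 0.0451). Msmo1, Ebp, Nsdhl, Hsd17b7, Fdps, Stard4 and Srebf2, the transcription factor of the pathway, passed the test in the fit without control 1 only. Under 15% CO2 Hmgcs1 stood at 40.2, 50.6 and 39.4 TPM. Against that group 2 of the 25 genes were lower with lactic acid in the fit without control 1, against 2.96% of all genes. Sc5d was among them (-0.23 ± 0.058, adjusted p = 0.0457). The list's count depended on single libraries. With 1 of the 6 left out it lay between 5 and 18, and over processing alternatives between 0, with both groups fitted alone, and 11. With control 1 also left out it was 8 without control 2 and 9 without control 3.

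**Figure D2:**
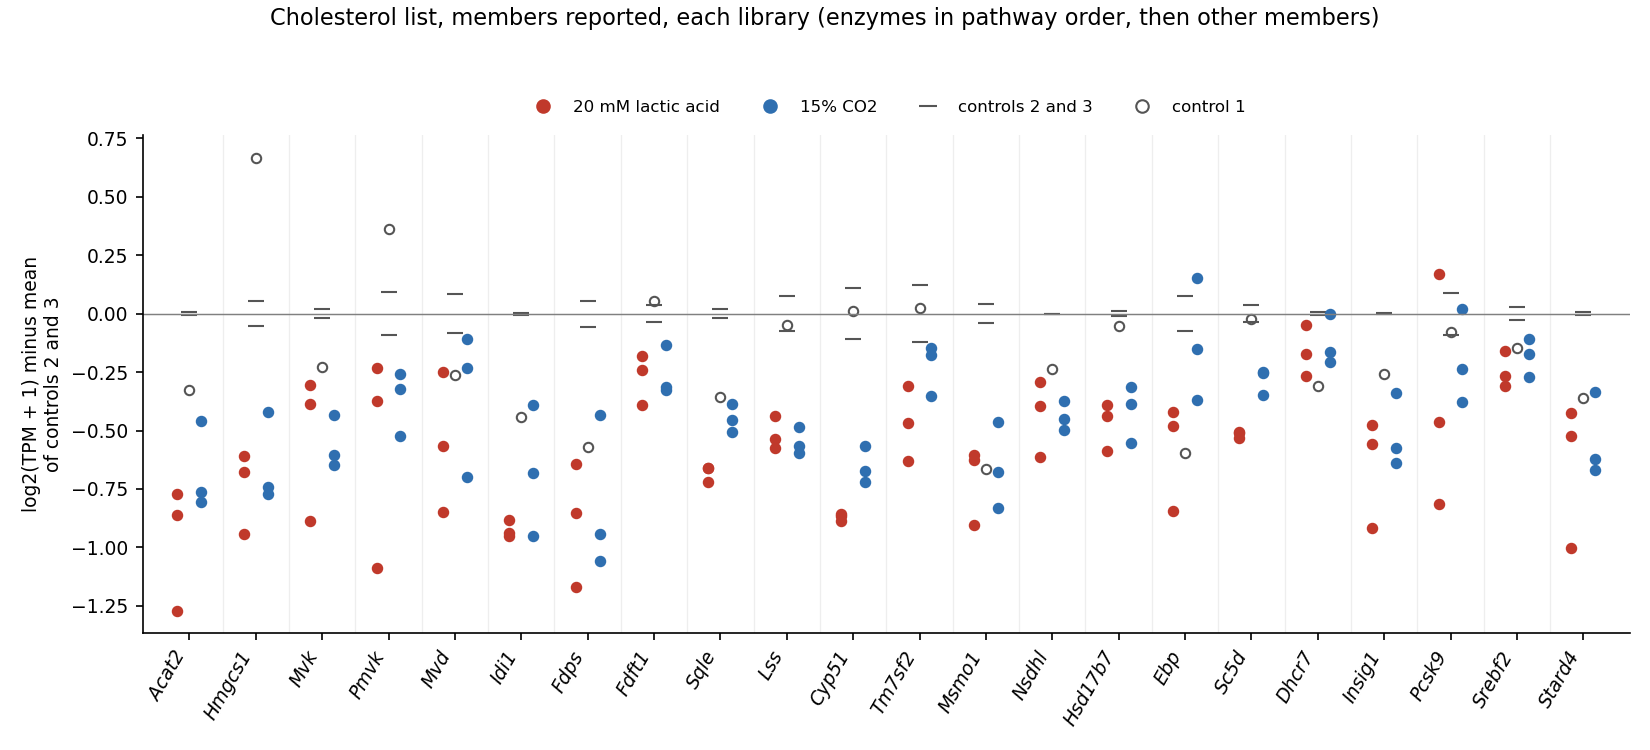
Members of the cholesterol list that are reported here (horizontal axis) with log2(TPM + 1) of each library minus the mean of controls 2 and 3 (vertical axis); red points are lactic acid, blue points 15% CO2, dashes controls 2 and 3 and open circles control 1. Most red points lie below 0, and the blue points of many genes lie between 0 and the red points or among them.

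Fatty acid genes are under the same family of transcription factors. Of 14 tested, 4 fell with 12 libraries (against 1.52% of all genes) and 5 without control 1 (against 7.08%), and none rose. Elovl6, an elongase, stood at 60.4, 64.5 and 62.2 TPM in controls 1, 2 and 3 and at 39.2, 39.3 and 41.6 TPM with lactic acid. For Elovl6 the change was -0.63 ± 0.077 (adjusted p = 0.00532). Fasn, the fatty acid synthase, stood at 81.4, 91.2 and 91.7 TPM in controls 1, 2 and 3 and at 57.6, 57.4 and 57.98 TPM with lactic acid. For Fasn the change was -0.60 ± 0.10 (adjusted p = 0.0152). Scd2, a desaturase and by far the most abundant member, fell by 0.46 on the log2 scale to 923, 931 and 832 TPM, and Acly, which supplies acetyl-CoA, had a change of -0.29 ± 0.071 (adjusted p = 0.0455). All 4 had lactic acid libraries below every control. Fads2, another desaturase, fell without control 1 only (-0.46 ± 0.056, adjusted p = 0.00109). None of the 14 was called different from 15% CO2 by limma.

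Among ER folding genes, several chaperones and cochaperones fell while a sensor and an oxidase rose. Of 25 genes of ER folding and the unfolded protein response, 6 fell and 2 rose with 12 libraries, against 1.52% and 2.47% of all genes. Without control 1, 13 fell, against 7.08%, and 2 rose, a share no higher than the 9.05% of all genes. The median change was -0.18 and -0.32. Beside Sdf2l1 and Creld2, the falls were those of Manf, a secreted ER protein, Dnajc3, a cochaperone that checks translation, Selenos, of protein removal from the ER, and Xbp1, the transcription factor. Manf stood at 96.4, 128 and 125 TPM in controls 1, 2 and 3 and at 70.1, 71.4 and 64.8 TPM with lactic acid. For Manf the change was -0.74 ± 0.12 (adjusted p = 0.0113). Dnajc3 stood at 76.2, 86.8 and 89.2 TPM in controls 1, 2 and 3 and at 58.1, 63.3 and 59.3 TPM with lactic acid. For Dnajc3 the change was -0.47 ± 0.091 (adjusted p = 0.0216). Hspa5, the main ER chaperone, was 764 TPM in control 1, 1235 and 1223 TPM in controls 2 and 3 and 686, 709 and 539.7 TPM with lactic acid. The groups did not overlap, and its change was -0.71 ± 0.20 (adjusted p = 0.0686) with 12 libraries and -0.94 ± 0.14 (adjusted p = 0.00268) without control 1. In the fit without control 1 only, Calr, Pdia4, Pdia6, Dnajb11, Hyou1 and Herpud1 fell by 0.30 to 0.49 on the log2 scale.

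The 2 genes that rose were Atf6, the membrane-bound sensor, and Ero1l, the oxidase that forms disulphide bonds. Atf6 stood at 74.4, 99.5 and 99.2 TPM in controls 1, 2 and 3 and at 137, 134 and 140.0 TPM with lactic acid. For Atf6 the change was 0.60 ± 0.10 (adjusted p = 0.0152). Ero1l stood at 78.4, 119 and 124 TPM in controls 1, 2 and 3 and at 181, 177 and 177 TPM with lactic acid. For Ero1l the change was 0.76 ± 0.15 (adjusted p = 0.0216). Both were above every control and both were also above 15% CO2, by 0.35 ± 0.051 (adjusted p = 0.00559) and 0.42 ± 0.069 (adjusted p = 0.00898), without control 1 only. Of the genes that fell, Sdf2l1 was lower with lactic acid than under 15% CO2 without control 1 (-1.16 ± 0.17, adjusted p = 0.00687), as were Manf (-0.45 ± 0.079, adjusted p = 0.0122) and Dnajc3 (-0.34 ± 0.074, adjusted p = 0.0299). With 12 libraries none of the 25 genes was called different from 15% CO2, and Sdf2l1 had -1.16 ± 0.20 (adjusted p = 0.0506). In low-NaHCO3 medium Hspa5 stood at 3494 ± 235 TPM (SD, n = 3) and Manf at 252 ± 29.2 TPM (SD, n = 3), above every control, while Sdf2l1 stood at 85.5 ± 3.55 TPM (SD, n = 3), below controls 2 and 3. The count of falling genes lay between 5 and 13 when 1 of the 5 libraries was left out beside control 1.

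The promoters of several of these genes hold the ER stress response element (CCAAT, any 9 bases, then CCACG), to which ATF6 and NF-Y bind. Those of 3 genes that fell, Hspa5 without control 1 only, are shown because they carry it in either orientation. The bases are the 250 before the start of transcription in RefSeq's GRCm38.p6 annotation, 5′ to 3′ on the gene's strand, and capitals mark the element. Creld2 has its window at chr15:88819396-88819645 on the plus strand with the element at -126 to -108 on the opposite strand. Dnajc3 has its window at chr14:118937682-118937931 on the plus strand with it at -105 to -87, and Hspa5 at chr2:34771840-34772089 on the plus strand with it at -65 to -47.
Creld2: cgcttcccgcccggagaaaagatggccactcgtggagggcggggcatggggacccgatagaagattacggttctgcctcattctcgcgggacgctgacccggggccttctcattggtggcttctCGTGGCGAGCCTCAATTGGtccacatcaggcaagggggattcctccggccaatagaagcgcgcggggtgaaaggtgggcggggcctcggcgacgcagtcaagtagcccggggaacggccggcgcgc
Dnajc3: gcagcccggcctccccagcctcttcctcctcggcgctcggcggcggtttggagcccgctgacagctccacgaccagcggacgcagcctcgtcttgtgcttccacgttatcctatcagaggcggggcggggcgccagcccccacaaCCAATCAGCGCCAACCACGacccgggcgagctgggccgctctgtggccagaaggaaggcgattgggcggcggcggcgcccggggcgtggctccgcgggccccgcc
Hspa5: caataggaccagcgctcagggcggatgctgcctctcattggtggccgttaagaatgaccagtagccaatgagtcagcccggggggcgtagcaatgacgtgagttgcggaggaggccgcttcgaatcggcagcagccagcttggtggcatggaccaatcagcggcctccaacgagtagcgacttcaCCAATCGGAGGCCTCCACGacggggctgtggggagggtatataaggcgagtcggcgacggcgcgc
Searched on both strands in windows of 300 bases (250 before to 50 after the start), the element was found in 8 of the 20 ER genes with a window (40%) and in 16 of 9640 tested genes with a window (0.166%). Of the 8 genes with it, 2 fell with 12 libraries and 5 without control 1, and of the other 12 with a window 3 and 6 fell. The difference between these shares was not tested. Elements of other lists were searched in the same way. A sterol element was found in 1 of 17 cholesterol genes with a window (5.88%), against 1.44% of all tested genes with a window. A heat shock element was found in 10 of 17 heat shock genes (58.8%, against 6.94%). A cAMP response element was found in 1 of 18 immediate early genes (5.56%, against 3.67%).

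Heat shock genes of the cytosol and mitochondria were called in both directions. Of 22, 3 fell and 1, Hspb7, rose with 12 libraries, against 1.52% and 2.47% of all genes, and 6 fell and 1 rose without control 1, against 7.08% and 9.05%. Hsph1, a large chaperone of the Hsp110 family, stood at 135, 122 and 119 TPM in controls 1, 2 and 3 and at 73.97, 75.6 and 71.96 TPM with lactic acid. For Hsph1 the change was -0.75 ± 0.069 (adjusted p = 0.00182). Under 15% CO2 it stood at 114, 118 and 118 TPM, a difference of -0.66 ± 0.069 (adjusted p = 0.00315) with 12 libraries. Dnaja1 and Dnajb1, cochaperones of Hsp70, changed by -0.61 ± 0.10 (adjusted p = 0.0129) and -0.32 ± 0.076 (adjusted p = 0.0449). Hspa8, the constitutive Hsp70, stood at 2436 and 2424 TPM in controls 2 and 3 and at 2001, 2005 and 1854 TPM with lactic acid and fell only without control 1 (-0.32 ± 0.091, adjusted p = 0.0399).

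Metal handling was led by Tfrc, described above, and by Mt1, a metal-binding metallothionein. Mt1 stood at 264, 262 and 235 TPM in controls 1, 2 and 3 and at 131, 133 and 129 TPM with lactic acid, and its change was -0.95 ± 0.10 (adjusted p = 0.00279). The 3 treated libraries lay close together, below every control. Of 14 genes of iron uptake and storage, 1 fell and 1 rose with 12 libraries, against 1.52% and 2.47% of all genes. Without control 1, 2 fell and 2 rose, against 7.08% and 9.05%. The member that rose with 12 libraries was Slc25a37, the mitochondrial iron importer. It stood at 70.5, 111 and 111 TPM in controls 1, 2 and 3 and at 161, 166 and 179.6 TPM with lactic acid. For Slc25a37 the change was 0.82 ± 0.16 (adjusted p = 0.0207). Ftl1, the ferritin light chain, fell without control 1 only (-0.40 ± 0.11, adjusted p = 0.0341), and Slc25a28, a second mitochondrial iron importer, rose without it only (0.27 ± 0.078, adjusted p = 0.0415). The zinc importer gene Slc39a10 was 87.9 TPM in control 1, 51.8 and 50.7 TPM in controls 2 and 3 and 70.6, 74.04 and 63.7 TPM with lactic acid, a rise of 0.43 ± 0.07 (adjusted p = 0.00385) without control 1.

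Immediate early genes respond to growth factor and kinase signalling, and the calls among them were rises, most of them only with control 1 left out. Of 25 tested, 5 rose with 12 libraries (against 2.47% of all genes) and 14 without control 1 (against 9.05%), and none fell. The 5 were Zfp36, Dusp1, Myc, Klf6 and Dusp6. Zfp36, which speeds decay of cytokine mRNA, stood at 10.2, 9.76 and 10.4 TPM in controls 1, 2 and 3 and at 18.2, 19.2 and 26.7 TPM with lactic acid. For Zfp36 the change was 0.99 ± 0.14 (adjusted p = 0.00871). Dusp1, a phosphatase of MAP kinases, stood at 26.4, 18.5 and 18.5 TPM in controls 1, 2 and 3 and at 35.98, 34.9 and 41.1 TPM with lactic acid. For Dusp1 the change was 0.81 ± 0.15 (adjusted p = 0.0197). In both genes every treated library was above every control. Myc stood at 47.7, 83.97 and 90.2 TPM in controls 1, 2 and 3 and at 116, 116 and 144 TPM with lactic acid. For Myc the change was 0.80 ± 0.20 (adjusted p = 0.0481).

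Egr1, a zinc finger factor of the same class, stood at 132 TPM in control 1, 38.7 and 37.4 TPM in controls 2 and 3 and 113, 96.4 and 129 TPM with lactic acid. Control 1 was above the treated libraries, and controls 2 and 3 were far below, so the change was 0.94 ± 0.37 (adjusted p = 0.159) with it and 1.53 ± 0.10 (adjusted p = 5.28e-05) without it. Egr2, Egr3, Fos and Fosb had the same arrangement. Fos was 34.7 TPM in control 1, 3.995 and 4.51 TPM in controls 2 and 3 and 10.6, 7.01 and 9.22 TPM with lactic acid. Egr3 was 83.8 TPM, 2.58 and 2.29 TPM and 5.28, 5.83 and 5.41 TPM in the same order. Their rises without control 1 were 1.09 for Egr2, 0.92 for Egr3, 0.90 for Fos and 0.68 for Fosb (adjusted p = 0.000688, 0.01, 0.0152 and 0.0184). Markers of brain cells were also high in control 1, and their part in these values was not tested. Klf4, Ier3, Dusp4 and Nr4a1 also rose in that fit only. The count of 14 fell to 4 without control 2 and 6 without control 3. Under 15% CO2 Egr1 stood at 51.1, 48.1 and 53.9 TPM. Against that group 11 of the 25 genes were higher with lactic acid without control 1, against 1.64% of all genes in this comparison. With 12 libraries none was, against 0.0325%. The count of 11 became 5 to 12 when 1 of the 6 libraries compared was also left out. Without control 1 Egr1 was higher by 1.12 ± 0.092 (adjusted p = 0.000275), Fos by 1.02 ± 0.18 (adjusted p = 0.0128) and Dusp1 by 0.64 ± 0.11 (adjusted p = 0.01).

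**Figure D3:**
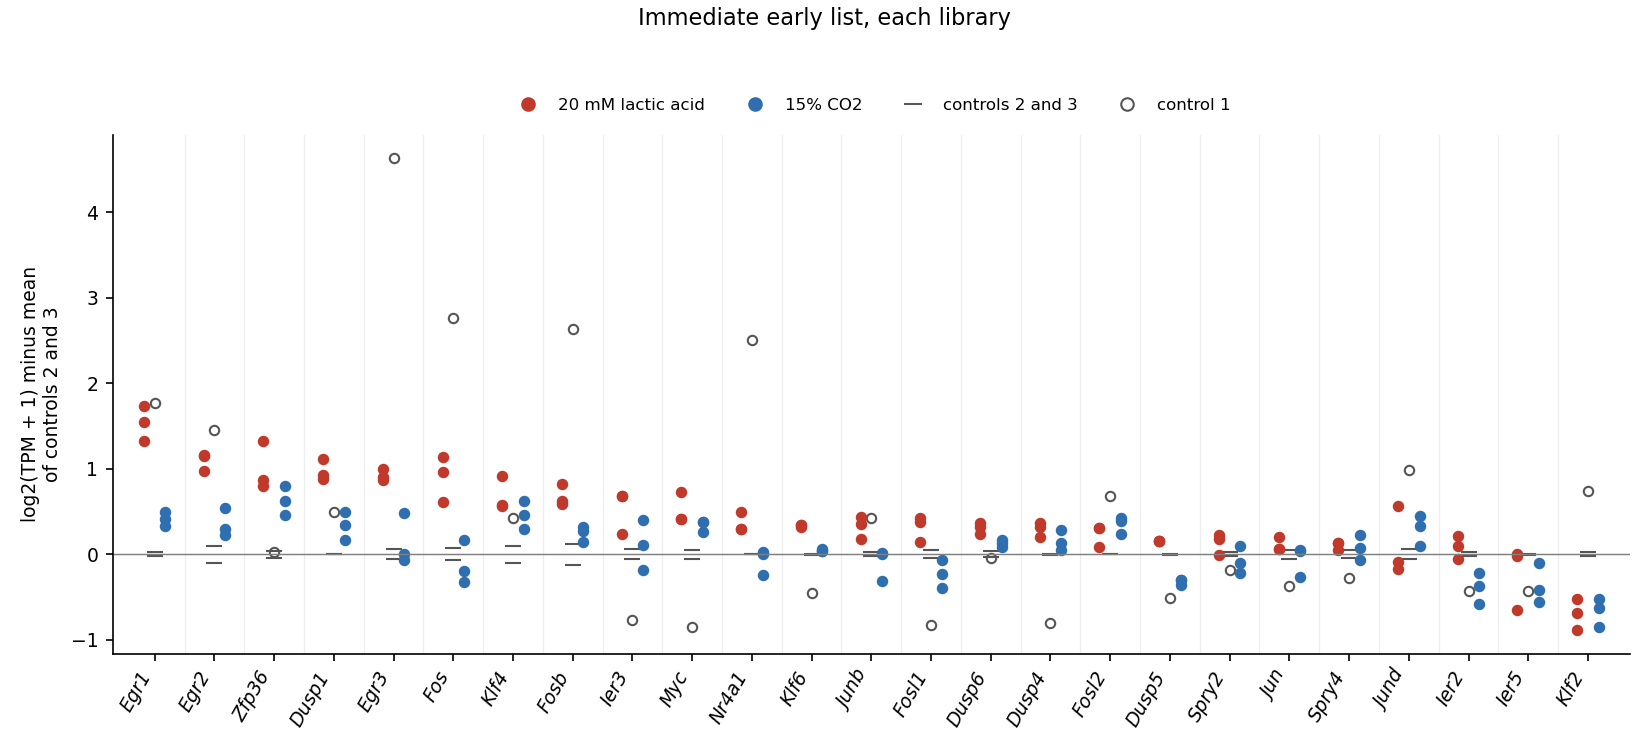
Members of the immediate early list (horizontal axis) with log2(TPM + 1) of each library minus the mean of controls 2 and 3 (vertical axis); colours and symbols are those of the plot of cholesterol genes. Red points lie above 0 for Egr1, Egr2, Dusp1 and Zfp36, with blue points below them, and the open circles of control 1 reach far above the rest for Egr3, Fos, Fosb and Nr4a1.

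Secreted matrix and growth factor genes were among those that rose. Of 26 matrix genes tested, 3 rose with 12 libraries, against 2.47% of all genes. Without control 1, 8 rose and 1 fell, against 9.05% and 7.08%. Fn1, which encodes fibronectin, stood at 228, 377 and 386 TPM in controls 1, 2 and 3 and at 661, 672 and 839 TPM with lactic acid. For Fn1 the change was 1.16 ± 0.19 (adjusted p = 0.0121). Tnc, the matrix protein tenascin C, stood at 139.5, 298 and 292 TPM in controls 1, 2 and 3 and at 497, 485 and 470.0 TPM with lactic acid. For Tnc the change was 1.07 ± 0.24 (adjusted p = 0.036). Each treated value of Fn1 and Tnc was above every control of the same gene, and control 1 was the lowest control of both. Spp1, which encodes osteopontin and was the most abundant of the list, was 1835 TPM in control 1, 3372 and 3376 TPM in controls 2 and 3 and 4635, 4693 and 4337 TPM with lactic acid. It rose by 0.43 ± 0.12 (adjusted p = 0.0289) without control 1. Col3a1, a fibrillar collagen, was the member that fell (-0.61 ± 0.10, adjusted p = 0.0043). Tnc was also above 15% CO2 (285, 285 and 284 TPM) without control 1, by 0.76 ± 0.10 (adjusted p = 0.00322), but was not called with 12 libraries (0.76 ± 0.24, adjusted p = 0.336). Fn1 was not called different from 15% CO2 in either fit (0.27 ± 0.10, adjusted p = 0.159 without control 1).

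Of 17 genes of transforming growth factor beta and bone morphogenetic protein signalling, 4 rose with 12 libraries and 5 without control 1, against 2.47% and 9.05% of all genes. Tgfb1, a ligand, stood at 17.6, 25.9 and 27.7 TPM in controls 1, 2 and 3 and at 40.7, 42.2 and 50.9 TPM with lactic acid. For Tgfb1 the change was 0.90 ± 0.15 (adjusted p = 0.0149). Tgfb2, a second ligand, and Tgfbi, a matrix protein induced by them, changed by 0.63 ± 0.13 (adjusted p = 0.0288) and 0.62 ± 0.12 (adjusted p = 0.0216). Grem1, a secreted antagonist of bone morphogenetic proteins, stood at 56.1, 75.7 and 73.2 TPM in controls 1, 2 and 3 and at 117, 116 and 109 TPM with lactic acid. For Grem1 the change was 0.74 ± 0.12 (adjusted p = 0.0129). Among 15 targets and factors of YAP and serum response factor, Ccn1 alone rose with 12 libraries, against 2.47% of all genes. Without control 1, 6 rose and 2 fell, against 9.05% and 7.08%. Ankrd1 stood at 395 and 379.5 TPM in controls 2 and 3 and at 572, 567 and 448 TPM with lactic acid (0.44 ± 0.12, adjusted p = 0.0277). Ccn2 stood at 25.6 and 26.2 and 42.5, 43.4 and 37.3 TPM (0.64 ± 0.12, adjusted p = 0.00788). Myl9, a smooth muscle light chain, went from 508 and 514 to 426, 417 and 367 TPM (-0.34 ± 0.086, adjusted p = 0.022). Leaving out 1 further library gave 3 to 9 matrix genes that rose, 2 to 5 of the transforming growth factor list and 1 to 5 of the YAP list.

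**Figure D4:**
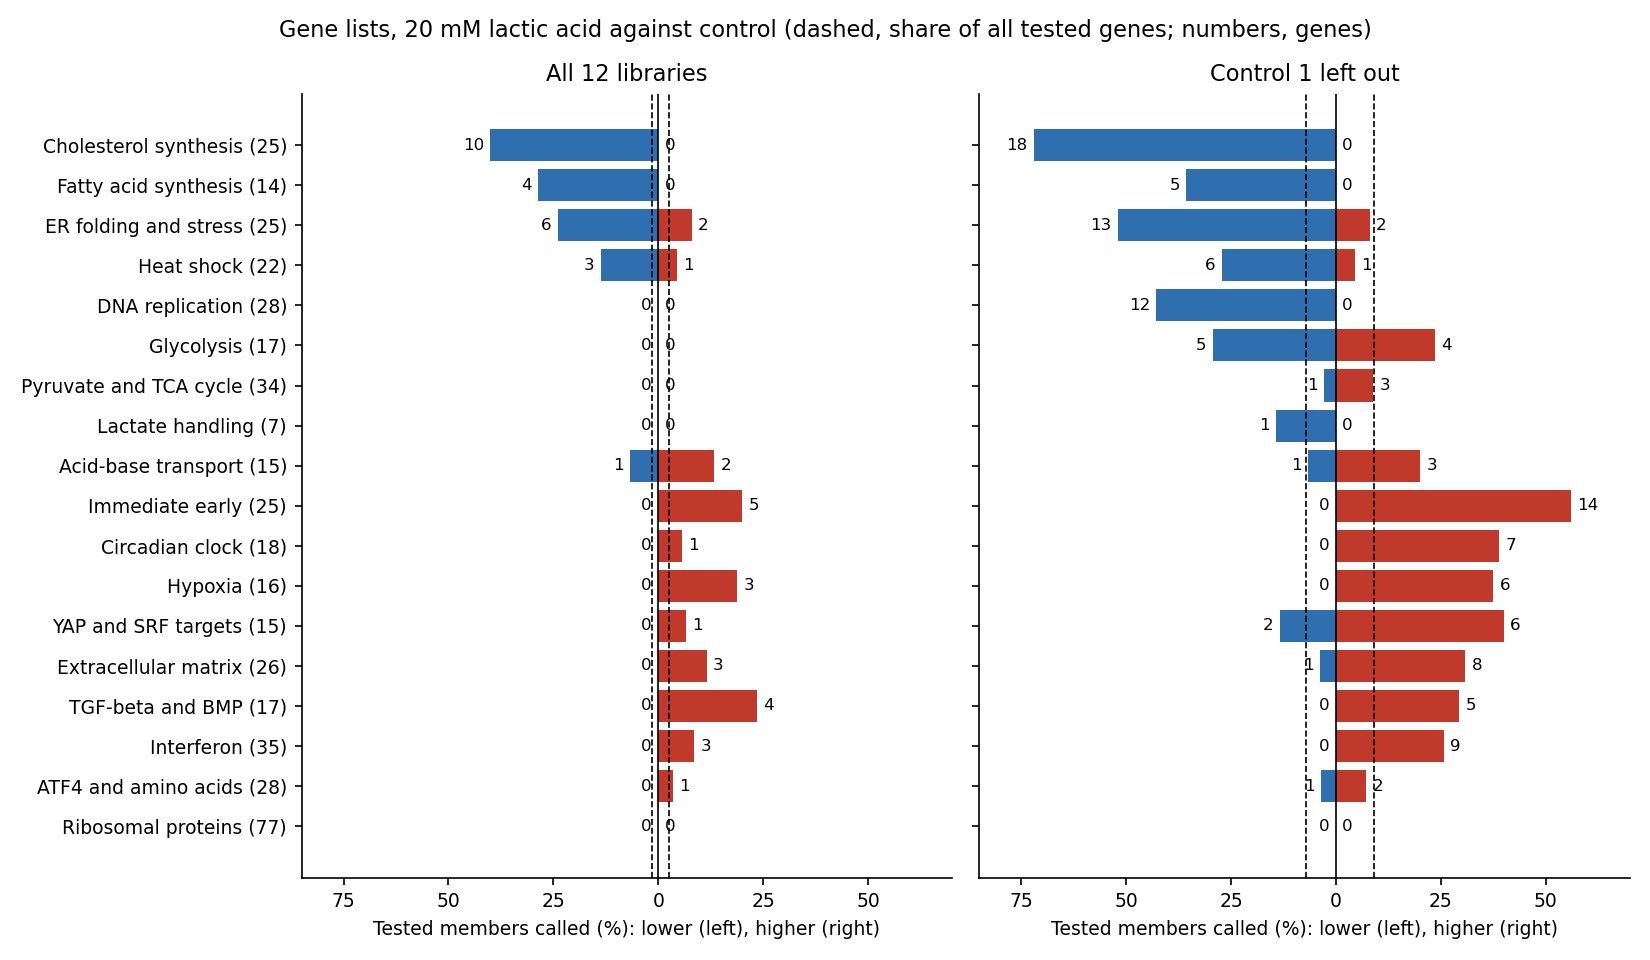
Share of tested members called lower (bars to the left of 0) or higher (to the right) in lactic acid against control for 18 gene lists, with 12 libraries in the left panel and without control 1 in the right panel; the number tested stands beside each name, numbers at the bars are genes and dashed lines give the share of all tested genes. Of the 25 cholesterol genes 10 are called lower in the left panel and 18 in the right, and of the 25 immediate early genes 5 and 14 are called higher.

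The genes that carry and convert lactate gave few calls, while their summed TPM was lower with lactic acid. The sum was 2127, 2350 and 2296 in controls 1, 2 and 3 and 1977, 2011 and 1684 with lactic acid (exact two-sided permutation p = 0.1). Of 15 listed, 7 were expressed enough to be tested, none was called with 12 libraries and Ldha alone without control 1. Ldha, the subunit of lactate dehydrogenase that dominates in lactate-making cells, stood at 589, 1014 and 930.2 TPM in controls 1, 2 and 3 and at 626, 632 and 451 TPM with lactic acid. Control 1 lay below lactic acid 1 and 2, so the change was -0.54 ± 0.20 (adjusted p = 0.136) with it and -0.79 ± 0.14 (adjusted p = 0.0056) without it. Slc16a1, the monocarboxylate transporter of most cells, stood at 125, 195 and 188 TPM in controls 1, 2 and 3 and at 183, 179.5 and 130.2 TPM with lactic acid. The difference was -0.036 ± 0.19 (adjusted p = 0.923) with 12 libraries and -0.24 ± 0.15 (adjusted p = 0.302) without control 1. Ldhb, the other subunit, stood at 523 TPM in control 1, 99.8 and 110.4 TPM in controls 2 and 3 and 113, 121 and 95.9 TPM with lactic acid. Its difference was -0.71 ± 0.48 (adjusted p = 0.385) with 12 libraries and 0.063 ± 0.11 (adjusted p = 0.721) without control 1, opposite in sign. Mpc1 and Mpc2, the mitochondrial pyruvate carrier, had differences of -0.56 ± 0.31 (adjusted p = 0.294) and -0.44 ± 0.21 (adjusted p = 0.238) with 12 libraries and -0.15 ± 0.19 (adjusted p = 0.614) and -0.25 ± 0.19 (adjusted p = 0.377) without control 1. Slc16a3, the transporter of glycolytic cells, was at no more than 0.403 TPM in controls 2 and 3 and the lactic acid libraries, and Slc16a7 and the lactate receptor gene Hcar1 were listed at 0 in those 5 libraries. Of 15 proton-sensing receptors and channels 4 were tested and none was called in either fit.

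An importer and an exporter of bicarbonate changed in opposite directions. Of 15 genes of acid extrusion and bicarbonate transport tested, 2 rose and 1 fell with 12 libraries, against 2.47% and 1.52% of all genes. Without control 1, 3 rose, against 9.05%, and 1 fell, a share no higher than the 7.08% of all genes. Slc4a7, which imports bicarbonate with sodium, stood at 24.1, 29.4 and 29.4 TPM in controls 1, 2 and 3 and at 48.1, 45.2 and 42.8 TPM with lactic acid. For Slc4a7 the change was 0.70 ± 0.10 (adjusted p = 0.00924). Slc4a2, which exports bicarbonate in exchange for chloride, stood at 20.6, 30.3 and 29.3 TPM in controls 1, 2 and 3 and at 16.4, 17.03 and 16.05 TPM with lactic acid. For Slc4a2 the change was -0.65 ± 0.14 (adjusted p = 0.0331). The importer was thus above all controls and the exporter below them. Car9, a carbonic anhydrase on the cell surface, stood at 6.57, 6.92 and 6.63 TPM in controls 1, 2 and 3 and at 10.6, 11.2 and 11.05 TPM with lactic acid. For Car9 the change was 0.63 ± 0.10 (adjusted p = 0.0113), and in the 15% CO2 group it stood at 14.1, 14.2 and 13.1 TPM. Slc4a8, another bicarbonate importer, rose without control 1 only (0.37 ± 0.10, adjusted p = 0.0348).

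Among 12 tested genes of purine signalling, P2rx3 and Nt5e rose with 12 libraries, against 2.47% of all genes. Without control 1, 3 rose, against 9.05%. Nt5e, the surface enzyme that makes adenosine, stood at 14.03, 14.7 and 13.1 TPM in controls 1, 2 and 3 and at 28.8, 28.5 and 25.6 TPM with lactic acid. For Nt5e the change was 0.94 ± 0.11 (adjusted p = 0.00468). P2rx4, another ATP-gated channel, changed by 0.43 ± 0.11 (adjusted p = 0.0525) with 12 libraries and rose by 0.35 ± 0.10 (adjusted p = 0.0326) without control 1. P2rx7, the most abundant of the channels, had 375 and 391 TPM in controls 2 and 3 and 386, 405 and 405 TPM with lactic acid, a difference of 0.058 ± 0.076 (adjusted p = 0.623) without control 1 and 0.28 ± 0.16 (adjusted p = 0.303) with 12 libraries.

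Summed TPM of the glycolysis list was 7310, 8671 and 8295 in controls 1, 2 and 3 and 6753, 6621 and 5347 with lactic acid. The groups did not overlap (exact two-sided permutation p = 0.1, the smallest that 3 against 3 can give). Such a sum weighs the most abundant members. Single genes of the list were called in both directions, and only without control 1. Of 17 tested, 4 rose and 5 fell in that fit, against 9.05% and 7.08% of all genes, and none with 12 libraries (unadjusted p was under 0.05 for 2832 of all genes there). Among the abundant enzymes of the lower pathway Eno1 fell from 1194 and 1157 TPM in controls 2 and 3 to 828, 851 and 584 TPM (-0.66 ± 0.16, adjusted p = 0.0206). So did Pgk1 (-0.64 ± 0.19, adjusted p = 0.0414), Pgam1 (-0.44 ± 0.11, adjusted p = 0.0205) and Pkm (-0.45 ± 0.10, adjusted p = 0.0166), and Pfkl, of the committed step (-0.66 ± 0.17, adjusted p = 0.0265). Slc2a3, a glucose transporter, rose from 46.9 and 49.3 to 79.8, 78.7 and 61.9 TPM (0.59 ± 0.12, adjusted p = 0.0108), and Pfkfb3, which makes an activator of glycolysis, by 0.30 ± 0.08 (adjusted p = 0.029). Eno2 and Pfkp, brain-rich forms, were 314 and 81.6 TPM in control 1 and rose against controls 2 and 3, by 0.64 ± 0.12 (adjusted p = 0.00708) and 0.37 ± 0.10 (adjusted p = 0.0259). Leaving out control 2 or control 3 as well ended all calls of the list. Of 34 genes of pyruvate oxidation and the tricarboxylic acid cycle, 3 rose and 1 fell without control 1, shares no higher than the 9.05% and 7.08% of all genes, and none was called with 12 libraries. Leaving out 1 further library gave 0 to 3 that rose and 0 to 2 that fell. Those that rose were Pdk2 (0.77 ± 0.22, adjusted p = 0.0386) and Pdk4 (0.42 ± 0.13, adjusted p = 0.0466), kinases that switch off pyruvate dehydrogenase, and Pdp1 (0.50 ± 0.088, adjusted p = 0.00531), the phosphatase that switches it on. Me2, a malic enzyme, fell (-0.38 ± 0.09, adjusted p = 0.0184). Txnip, which follows glucose-derived signals, stood at 11.8 and 12.9 TPM in controls 2 and 3 and 18.1, 15.6 and 17.97 TPM with lactic acid and was not called (0.45 ± 0.18, adjusted p = 0.115 without control 1 and 0.032 ± 0.30 (adjusted p = 0.959) with 12 libraries). Its relative Arrdc3 rose by 0.74 ± 0.072 (adjusted p = 0.000495) without control 1.

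Hypoxia-responsive genes gave 3 rises of 16 with 12 libraries and 6 without control 1, against 2.47% and 9.05% of all genes. Vegfa, the vascular growth factor, stood at 109, 131 and 133 TPM in controls 1, 2 and 3 and at 183, 183 and 159 TPM with lactic acid. For Vegfa the change was 0.49 ± 0.11 (adjusted p = 0.0316), and the other members were Car9 and Ero1l. Ndrg1 was 18.6 TPM in control 1, 4.31 and 4.82 TPM in controls 2 and 3 and 8.70, 9.05 and 10.6 TPM with lactic acid (0.91 ± 0.11, adjusted p = 0.00109 without control 1). Mxi1 and Bhlhe40 rose by 0.67 ± 0.085 (adjusted p = 0.00123) and 0.51 ± 0.11 (adjusted p = 0.0135) in that fit. Of 18 circadian clock genes, Dbp, an output factor, rose with 12 libraries, from 19.5, 14.1 and 15.6 TPM to 31.9, 29.5 and 20.96 TPM (0.70 ± 0.16, adjusted p = 0.0409). Without control 1 there were 7 that rose, against 9.05% of all genes. Nr1d1, a repressor of the clock loop, stood at 30.9 and 33.6 TPM in controls 2 and 3 and 49.9, 51.1 and 71.1 TPM with lactic acid (0.79 ± 0.16, adjusted p = 0.0106). Per1, another repressor, stood at 11.1 and 11.95 and 19.96, 18.2 and 22.8 TPM (0.76 ± 0.14, adjusted p = 0.00748). Those 7 became 0 when control 2 was also left out and 3 when control 3 was.

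Genes of DNA replication fell only in the fit without control 1. Of 28, 12 fell there, against 7.08% of all genes, and none with 12 libraries. Mcm5, part of the replicative helicase, was 87.2 TPM in control 1, 168 and 162 TPM in controls 2 and 3 and 127, 129.6 and 99.8 TPM with lactic acid (-0.48 ± 0.11, adjusted p = 0.0175). Ccne2, a cyclin of S phase entry, went from 74.03 and 72.4 to 44.6, 47.1 and 44.3 TPM (-0.68 ± 0.10, adjusted p = 0.00219). Tyms, of thymidine synthesis, went from 59.9 and 52.3 to 34.8, 37.8 and 28.6 TPM (-0.72 ± 0.12, adjusted p = 0.00465), and Cdc6, a loader of the helicase, from 38.2 and 39.1 to 25.3, 25.9 and 21.8 TPM (-0.65 ± 0.10, adjusted p = 0.00309). The count lay between 2 and 12 when 1 further library was left out. Of 26 mitosis genes 3 fell in that fit (0 to 4 with 1 further library left out), Cdc20, Kif20a and Birc5, by 0.40 to 0.50 on the log2 scale. None of 77 ribosomal protein genes was called in either fit.

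Set against 15% CO2, the lactic acid group differed in 25 genes with 12 libraries, 4 higher (0.0325% of genes tested) and 21 lower (0.170%), and in 563 without control 1, 201 higher (1.64%) and 362 lower (2.96%). Control libraries do not enter this difference except through the shared spread and the filter on low values. Of the 305 genes that rose against control, 71 were further up than under 15% CO2 and 3 lay below it, and of the 187 that fell 50 were further down, all without control 1. With 12 libraries these counts were 2 further up (Cd68 and Sh2d6) and 7 further down. The 305 and 187 genes were chosen by the same lactic acid libraries, so an excess of further over opposite differences is partly built in. Sh2d6 stood at 3.78, 4.60 and 5.14 TPM under 15% CO2, within reach of the controls, and was higher with lactic acid by 1.70 ± 0.19 (adjusted p = 0.00405). Cd68 stood at 99.8, 80.4 and 99.9 TPM, between control and lactic acid, a difference of 1.19 ± 0.18 (adjusted p = 0.0239). The count of 25 was 6 without 15% CO2 replicate 2, 9 without 15% CO2 replicate 1 and 8 without lactic acid 1 or lactic acid 2. Median-of-ratios scaling gave 13 higher and 30 lower.

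Muscle genes called against 15% CO2 were all lower with lactic acid. Of 19 tested without control 1, 11 were lower, against 2.96% of all genes, and none higher, with a median difference of -0.62. With 12 libraries 6 of 20 were lower, against 0.170%, and none higher. The count of 11 was 8 to 13 when 1 further library was left out. Myog stood at 32.4, 33.3 and 27.3 TPM under 15% CO2, against 3.56, 3.87 and 6.71 TPM with lactic acid and 12.8, 8.92 and 10.4 TPM in controls. The difference between the treatments was -2.52 ± 0.22 (adjusted p = 0.00154) with 12 libraries. Tnnt1, a troponin of slow muscle, stood at 163, 166 and 149 TPM under 15% CO2 and 69.4, 68.9 and 72.6 TPM with lactic acid (-1.17 ± 0.10, adjusted p = 0.00154). Actc1, an actin of heart and developing muscle, stood at 36.4, 36.2 and 30.9 and 8.78, 7.67 and 10.6 TPM (-1.83 ± 0.18, adjusted p = 0.00261). For these 3 genes the lowest library under 15% CO2 was above the highest with lactic acid. Against control, 2 of the 19 rose and 3 fell without control 1, beside 9.05% and 7.08% of all genes, so the share that rose was near that of all genes. Des, the muscle filament desmin, rose from 8.92, 12.4 and 15.04 TPM to 25.6, 27.7 and 24.1 TPM (1.06 ± 0.16, adjusted p = 0.011), and Myod1, a regulator that acts before Myog, rose without control 1 only (0.42 ± 0.11, adjusted p = 0.0284). Myog, Cdh15 and Tnnt1 fell, Myog in both fits.

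Interferon-stimulated genes called against 15% CO2 were all lower with lactic acid, and none fell against control. Of 35, 21 were lower than under 15% CO2 without control 1, against 2.96% of all genes, and none was higher. The median difference was -0.76. With 12 libraries 2 were lower, against 0.170%. Ifit1 stood at 26.4, 30.1 and 18.7 TPM under 15% CO2 and 5.94, 7.82 and 9.52 TPM with lactic acid, beside 7.52, 3.78 and 5.48 TPM in controls (-1.57 ± 0.19, adjusted p = 0.00268 against 15% CO2 without control 1). Irf7, the factor that amplifies the response, stood at 13.2, 12.5 and 8.02 and 2.77, 4.76 and 5.17 TPM (-1.23 ± 0.21, adjusted p = 0.00944). In the comparison with control, 3 of the 35 rose with 12 libraries (Rtp4, Ddx58 and Rsad2), against 2.47% of all genes. Without control 1, 9 rose, against 9.05%. Rtp4 stood at 7.29, 3.69 and 5.67 TPM in controls 1, 2 and 3 and at 9.996, 12.3 and 16.6 TPM with lactic acid. For Rtp4 the change was 1.10 ± 0.23 (adjusted p = 0.0285). Ddx58, a sensor of viral RNA, stood at 11.6, 14.2 and 16.9 TPM in controls 1, 2 and 3 and at 22.1, 25.6 and 26.7 TPM with lactic acid. For Ddx58 the change was 0.77 ± 0.15 (adjusted p = 0.0214). The count of 21 was 9, 10 and 27 without 15% CO2 replicate 1, 2 or 3, and 10, 10 and 18 without lactic acid 1, 2 or 3. The count of 9 against control became 0 when control 2 was also left out.

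The ATF4 list held 28 genes of amino acid supply and of the stress response. Without control 1, 7 of them were higher with lactic acid than under 15% CO2, against 1.64% of all genes, and none lower. None was called with 12 libraries. The count was 19 when lactic acid 3 was also left out and 2 to 3 when 1 of the other libraries was. Asns, asparagine synthetase, stood at 313, 322 and 317 TPM under 15% CO2 and 479, 448 and 396 TPM with lactic acid (0.47 ± 0.075, adjusted p = 0.0084 without control 1). Chac1, which degrades glutathione, stood at 42.5, 49.9 and 50.4 and 75.4, 79.6 and 61.9 TPM (0.59 ± 0.10, adjusted p = 0.00856). Trib3 and Ddit3, stress-induced genes of the same axis, were higher by 0.70 ± 0.17 (adjusted p = 0.043) and 0.43 ± 0.095 (adjusted p = 0.0294) in that fit. Against control only Pycr1 rose with 12 libraries. Without control 1 Asns rose as well (0.38 ± 0.084, adjusted p = 0.0131) and Slc7a3, an amino acid transporter, fell (-0.68 ± 0.20, adjusted p = 0.0448). The median change of the list was 0.20 in the first fit and -0.08 in the second.

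**Figure D5:**
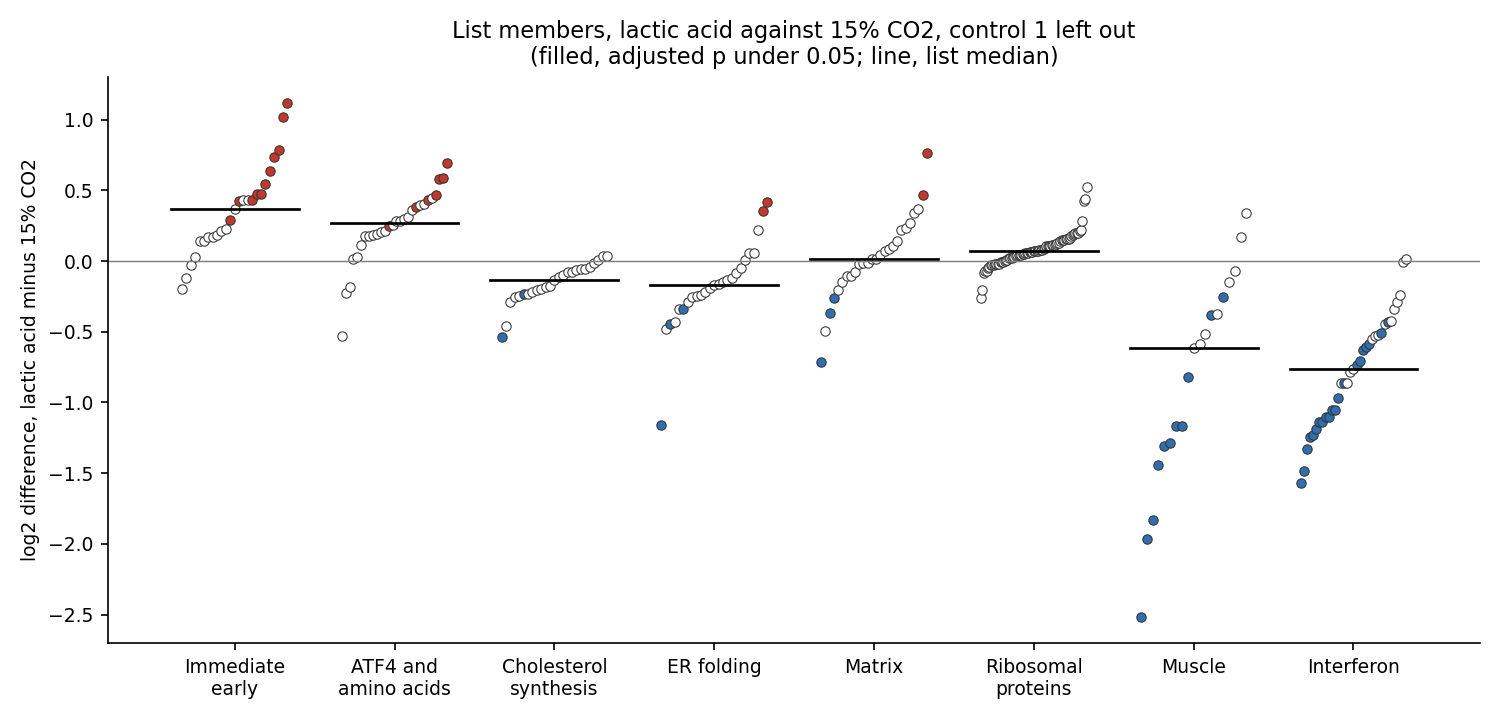
log2 difference of lactic acid minus 15% CO2 (vertical axis) for members of several gene lists (horizontal axis) with control 1 left out; each point is a gene, filled where the adjusted p was under 0.05, and lines are list medians. Of the muscle genes 11 and of the interferon genes 21 are filled below 0, with medians of -0.62 and -0.76, and of the immediate early and ATF4 genes 11 and 7 are filled above 0.

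The promoter of Pycr1, the member of this list that rose in both fits against control, is shown because its window carries TGATGCAA, a form of the element bound by ATF4. The element is in capitals at -103 to -96. The 250 bases before the start lie at chr11:120643749-120643998 on the minus strand (RefSeq, GRCm38.p6) and are printed 5′ to 3′ on the gene's strand.
Pycr1: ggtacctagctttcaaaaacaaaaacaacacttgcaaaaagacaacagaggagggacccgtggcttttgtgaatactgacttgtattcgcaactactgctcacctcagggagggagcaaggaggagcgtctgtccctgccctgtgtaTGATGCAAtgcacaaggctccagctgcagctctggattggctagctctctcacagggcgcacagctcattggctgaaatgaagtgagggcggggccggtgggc
Searched on both strands in the 300-base windows, these letters were found in 6 of the 24 members with a window (25%) and in 68 of 9640 tested genes with a window (0.705%). Of the 6, Pycr1 rose in both fits. Of the other 18, none was called with 12 libraries and 1 rose without control 1.

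Against low-NaHCO3 medium the lactic acid group was higher in 5250 genes (42.9%) and lower in 2989 (24.4%) without control 1. With 12 libraries the split was 3793 higher and 2188 lower, and other scalings turned it to 2801 and 3413 (median of ratios) or 2083 and 1936 (quantile). Of the 305 genes that rose against control, 139 were further up than in low-NaHCO3 medium and 99 lay below it, and of the 187 that fell 52 were further down and 78 lay above it. Ccn1, for example, stood at 1618 ± 63.8 TPM (SD, n = 3) in low-NaHCO3 medium, far above its lactic acid level, and P2rx3 at 1.10 ± 0.675 TPM (SD, n = 3), below its control level. The 305 and 187 genes were chosen by the same lactic acid libraries, which favours further over opposite differences here and in the counts that follow. In both directions together, 41 genes were further up and 8 further down with lactic acid than in both other treatments, in the fit without control 1. With 12 libraries these counts were 1, which was Cd68, and 0. Those with the largest margins over both were P2rx3, Cd68, Csn3, Cdsn, Arhgdib and Calcrl among genes that rose. Csn3, which encodes kappa-casein, stood at 2.92, 5.90 and 6.35 TPM in controls 1, 2 and 3 and at 10.1, 11.2 and 14.4 TPM with lactic acid. It stood at 6.11 ± 1.51 TPM (SD, n = 3) under 15% CO2 and 5.89 ± 0.744 TPM (SD, n = 3) in low-NaHCO3 medium. Calcrl, the receptor subunit for adrenomedullin and calcitonin gene-related peptide, stood at 5.37, 5.86 and 6.26 TPM in controls 1, 2 and 3 and at 9.94, 11.1 and 10.9 TPM with lactic acid. In every library of the other treatments it lay below the lowest of the 3 lactic acid libraries. Arhgdib, which holds small GTPases inactive, had 17.8, 28.3 and 25.1 TPM in controls and 41.7, 42.01 and 34.1 TPM with lactic acid, and Cdsn, an adhesion protein of skin, 8.59, 18.9 and 17.1 and 28.6, 30.2 and 33.3 TPM. Among genes that fell the margins were largest for Sdf2l1, H2afj, Ccdc137, Manf, Qtrt2 and Dnajc3. H2afj, a histone H2A variant gene, stood at 14.2, 15.5 and 11.8 TPM in controls 1, 2 and 3 and at 7.54, 8.07 and 6.17 TPM with lactic acid. It stood at 12.5 ± 1.10 TPM (SD, n = 3) under 15% CO2 and 15.2 ± 1.64 TPM (SD, n = 3) in low-NaHCO3 medium. Qtrt2, a subunit of the enzyme that places queuine in transfer RNA, stood at 31.7, 36.7 and 35.4 TPM in controls 1, 2 and 3 and at 26.2, 25.8 and 22.1 TPM with lactic acid.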

How the data were processed

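RNA of 12 libraries labelled as C8-D1A cells was measured by RNA-seq, 3 in each of 4 groups. The values are TPM per gene, which the authors computed and deposited in 1 table, as the file headers name them. The submitters' processing notes name fastp 0.22.0, HISAT2 2.1.0 and the build GRCm39; what each was used for is not recorded there. The counter, its annotation and its strand setting were not given in the sources used here, so overlapping and antisense genes cannot be told apart. Gene symbols were matched by identifier, with 21851 of 21959 found, and of 26 identifiers that repeat a symbol the one with the highest mean was kept. Because the reference held here is of another build, no gene coordinates are given except for promoter windows from RefSeq's GRCm38.p6 annotation. Depth cannot be derived from TPM, which sums to 1000000 in each library, and a rise of a few abundant transcripts lowers all others.

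Genes that reached 1 TPM in 3 or more libraries were fitted on log2(TPM + 1) by limma 3.58.1 in R 4.3.3, with 1 mean per group, a trended eBayes spread shared by the 4 groups, and Benjamini-Hochberg adjustment over all genes tested. Data were simulated for 12 libraries with the means and spread of the fit without control 1 (12230 genes, 200 changed). There 63.5% of changes of 0.5 and 98.5% of changes of 1 on the log2 scale were recovered, with 5 and 21 false calls. These rates do not describe the real fit of 12 libraries, where control 1 widened the spread (standard error of Ccn1, 0.18 against 0.073 without it). Named genes were set by rule: the 12 highest and 12 lowest changes called in both fits with no overlap between groups and a mean of 5 TPM or more in either group, leaving out predicted genes; up to 5 called members of each list; the 6 in each direction with the largest margin over both other treatments; and a fixed panel. Other genes named were chosen after their values were seen. Values of some genes that these rules name are not reported here, while counts and medians of lists cover all members. The members and lists were chosen with earlier results of these data known. Alternatives were another pseudocount, other filters and scalings, a fit restricted to both groups, eBayes made robust or without its trend, a block for the replicate number, and the omission of each library. Counts of list members under each setting, and the joint omission of 3 libraries in the comparison with 15% CO2, were added after seeing the data. The labels of some replicates give increments of CO2 and reagent numbers that were taken for copying errors, and group membership follows the stated treatment.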

Additional observations from a re-analysis of the deposited data

How the results depend on the processing

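Across settings, 492 genes changed with lactic acid became 777 (455 higher, 322 lower) with median-of-ratios scaling, 959 (682 and 277) without mitochondrial and the 10 most abundant genes, and 0 when only control and lactic acid were fitted (1672 at unadjusted p under 0.05). Quantile normalization gave 334 and moved the median of all genes from -0.0357 to 0.121. Leaving out 1 library gave 101 to 1972 genes. Without control 1 the 1972 became 971 with only the groups compared, and 229 to 1772 with 1 further library left out (229 without control 2, 442 without control 3). Against 15% CO2 the 25 genes became 12 without a filter, 43 with a filter at 5 TPM, 43 with median-of-ratios scaling, 5 with quantile normalization, 115 with only the groups compared, 40 without trend, 6 to 563 with 1 library left out, and 722 with control 1, 15% CO2 replicate 3 and lactic acid 3 left out together. Against low-NaHCO3 medium the 5981 genes stayed within 1.5 times in every setting, and median-of-ratios scaling moved the median of all genes from 0.159 to -0.0115. Without control 1 the direction of Eno2, Pdk2 and Pdk4 reversed, from -1.43, -0.19 and -0.05 to 0.64, 0.77 and 0.42; without control 2 or 3 the lowest values were -2.46, -0.72 and -0.33. The list medians of mitochondrial transcripts without mitochondrial genes, and of erythrocyte markers at 5 TPM, could not be had, since no member was tested. The cause of these shifts was not tested.

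Whether replicate numbers pair the samples cannot be decided here, because control 1 and lactic acid 3 each stood apart within their groups. The deviations of lactic acid 1, 2 and 3 correlated with those of the same-numbered control at -0.145, 0.136 and -0.132 across genes. With the same-numbered 15% CO2 library the values were -0.027, 0.313 and 0.462, and lactic acid 1 correlated best with 15% CO2 replicate 2 (0.379); with low-NaHCO3 medium they were -0.029, -0.083 and -0.124. With the replicate number as a block the counts were 355, 2287, 13 (against 15% CO2) and 5953 (against low-NaHCO3 medium).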

Other observations

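Single members of further lists changed with lactic acid, and nothing is read from these lists as groups. Lysosomal genes, for example, had 2 rises and 2 falls among 29 without control 1, beside 9.05% and 7.08% of all genes. Of the 29, Cd68 and Npc1, which exports cholesterol from lysosomes, rose with 12 libraries and Atp6v0d1, a proton pump subunit, fell. Npc1 stood at 25.3, 31.96 and 32.3 TPM in controls 1, 2 and 3 and at 43.1, 42.6 and 42.04 TPM with lactic acid. For Npc1 the change was 0.51 ± 0.093 (adjusted p = 0.0182). Of 12 genes of insulin-like growth factor signalling, Igfbp7, a binding protein, rose from 40.6, 38.5 and 32.2 TPM to 54.2, 55.6 and 67.6 TPM (0.66 ± 0.11, adjusted p = 0.0152), and Igfbp5, another, was lower with lactic acid (86.2, 90.5 and 171 TPM) than under 15% CO2 (274, 264 and 249 TPM), by -1.25 ± 0.21 (adjusted p = 0.00993) without control 1. Ccl7, a chemokine for monocytes, was the member of 19 NF-kB and cytokine genes that rose with 12 libraries, from 20.2, 31.4 and 34.5 TPM to 44.8, 49.98 and 50.1 TPM (0.77 ± 0.17, adjusted p = 0.0324). Of 18 genes of the antioxidant response, Gstm1, a glutathione transferase, rose from 337, 290.1 and 299 TPM to 394, 400.2 and 397 TPM (0.37 ± 0.083, adjusted p = 0.0377).

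Among 16 genes of the p53 response, Bax, which permeabilises mitochondria, fell with 12 libraries, from 36.6, 46.9 and 43.5 TPM to 32.7, 25.9 and 19.9 TPM (-0.69 ± 0.16, adjusted p = 0.0384). Plk2 and Gadd45a rose without control 1 (0.71 and 0.72 on the log2 scale), and Gadd45a spread widely with lactic acid, at 134, 108 and 70.7 TPM. Of 17 genes reported in reactive astrocytes, Cd109, a surface protein that binds transforming growth factor beta, rose from 62.7, 110.0 and 113 TPM to 194, 202 and 213 TPM (1.13 ± 0.19, adjusted p = 0.0129). Of the astrocyte markers Sox9, a transcription factor of glia and cartilage, rose from 23.8, 31.2 and 34.9 TPM to 52.5, 50.2 and 50.9 TPM (0.77 ± 0.12, adjusted p = 0.0113). The 13 mRNAs encoded by mitochondria did not move as a block: mt-Co2 rose (0.77 ± 0.17, adjusted p = 0.0357), mt-Nd3 fell (-0.84 ± 0.19, adjusted p = 0.0363), and the highest mt-Co2 and lowest mt-Nd3 were both in lactic acid 3, the library with the largest mitochondrial share.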
